A study of Mus musculus with 38 samples.

Results

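Testes of LuRKO mice, a knockout of the luteinizing hormone receptor, were compared with wild-type testes 48 h after a single injection of testosterone. The comparison rests on 4 of the 38 Illumina bead arrays of the series: 2 of LuRKO testes (replicates A and B) 48 h after 2.5 mg testosterone propionate, injected into the peritoneal cavity at day 19, and 2 of uninjected wild-type testes at day 19. All 34885 probes with 1 gene symbol, of 45281 on the array, were taken, and 15843 genes had a probe above background on at least 2 arrays of the series. Untreated LuRKO testes at day 19 (2 arrays), LuRKO testes 24 h after vehicle (2 arrays) or after 250 ng testosterone propionate (2 arrays), and wild-type testes at day 27 (2 arrays) served as further references. A few passages also use LuRKO testes at days 3, 13 and 27 (day 27 with 1 array), wild-type testes at day 13 and 1 array of LuRKO testes 24 h after 2.5 mg. All 38 arrays, which include other ages, doses and times, entered the shared estimate of the spread. Each array held RNA of the pooled testes of 2 animals. At sampling the treated mice were 2 days older than the wild-type mice of day 19. Every LuRKO group carried the receptor deletion in all tissues.

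Luteinizing hormone acts on Leydig cells, the interstitial cells that turn cholesterol into testosterone. Testosterone then acts on Sertoli cells, peritubular cells and Leydig cells through the androgen receptor, and spermatids do not complete their development without it. Some products of Leydig cells depend on luteinizing hormone itself, so a comparison of treated mutant with wild-type testes asks which genes testosterone alone leaves at the mutant level, which return to the wild-type level and which pass it. The receptor genes themselves were not analysed here. Levels below are log2 of the deposited intensity, and differences are on that scale, so that 1 stands for 2-fold. Values of different genes come from different probes and are not compared with each other. In whole testis, fewer cells of a type and less RNA per cell cannot be told apart.

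An array and an array set bear on the results and are described first. The library labelled vehicle replicate A had the levels of a wild-type testis for genes that were low in LuRKO testes: its Insl3 level was 12.34, against 13.01 and 12.70 in wild type, 9.49 and 9.13 in untreated LuRKO and 9.24 in vehicle replicate B. Its Rhox5 level was 10.92, against 8.17 in replicate B. Its labelled age also disagrees with its labelled time after injection. It remains in the fit of the direct comparison, through the shared estimate of the spread. Values with vehicle as control are therefore given with replicate B alone, unless both are named. The second point concerns injection: the treated arrays belong to the injected series, and the wild-type arrays to the developmental series.

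In the direct comparison of treated with wild-type arrays, 282 genes were called and at least 2-fold lower, and 21 were called and at least 2-fold higher. The median of these 282 genes, relative to wild type at day 19, lay between -1.56 and -0.99 in all 19 injected arrays, whatever the dose or time and vehicle included. It lay between -0.43 and 0.34 in 17 of the uninjected arrays, and at -1.01 and -1.15 in both arrays of LuRKO testes at day 3. Of these genes, 35 had other probes with a mean log2 intensity over 8. Over those 44 other probes the median difference between 48 h and wild type was -0.01, where the probes that stood for the 35 genes had a median of -1.23. Of the 44, 5 were called at least 2-fold lower as well. The -1.23 follows from how the genes were chosen, as do the low values of the 48 h arrays among the 19. All arrays are also set against the wild-type arrays that the choice used. Elf2, an ETS family transcription factor, had probes that differed in this way: its brightest probe read 11.13 and 11.51 in wild type, 11.03 and 10.78 in untreated LuRKO, 8.85 in vehicle replicate B and 9.24 and 9.32 at 48 h, while its 4 other probes differed between 48 h and wild type by -0.12 to 0.20. Vehicle against untreated LuRKO, where neither group had received testosterone, gave 2158 called genes (13.6% of those tested) with vehicle replicate A included, and 1427 (9.01%) with replicate B alone. Injection, array series and 1 day of age cannot be told apart in that comparison.

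**Figure D1:**
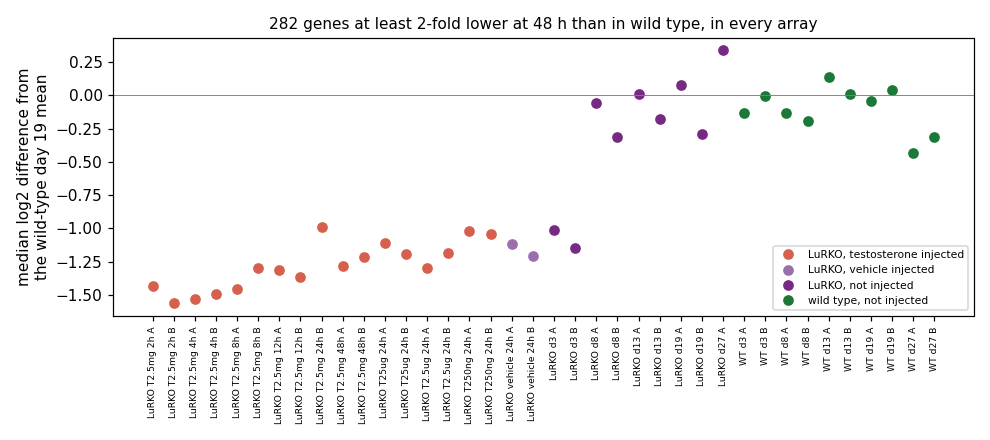
Median log2 difference from the wild-type day 19 mean (vertical axis) over the 282 genes called at least 2-fold lower at 48 h, for each of the 38 arrays (horizontal axis), coloured by genotype and injection. All 19 injected arrays and both LuRKO day 3 arrays lie at -0.99 or below, and the other 17 arrays between -0.43 and 0.34. The genes were chosen on the 48 h and wild-type day 19 arrays shown here.

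A second estimate of the same difference was therefore formed, chosen after the data were seen. This stepwise difference adds the gap between 48 h and vehicle replicate B, both injected, to the gap between untreated LuRKO and wild type, both uninjected. It takes injected and untreated LuRKO testes to differ by injection, array series and age alone, and it has 1 array at its vehicle step. The vehicle array was taken 24 h after injection and the treated arrays at 48 h. Testosterone and the later sampling therefore cannot be told apart in any change from vehicle to 48 h given below. Direct and stepwise values stand side by side below and share the 48 h and wild-type arrays, so they do not bear each other out as independent measurements.

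The direct comparison called 959 genes higher (6.05% of 15843) and 1112 lower (7.02%) at 48 h than in wild type at day 19, by limma with adjusted p under 0.05. The stepwise difference called 55 genes higher (0.347%) and 44 lower (0.278%), with 2074 genes at an unadjusted p under 0.05. Leaving out 1 of the 4 arrays left between 370 and 458 genes called higher and between 751 and 836 called lower directly, and leaving out 1 array of the stepwise difference gave between 15 and 157 higher and between 16 and 182 lower. The median over all genes was 0.04 directly and 0.00 stepwise. The stepwise difference is less precise, since it adds the spread of 4 groups, 1 of them a single array.

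**Figure D2:**
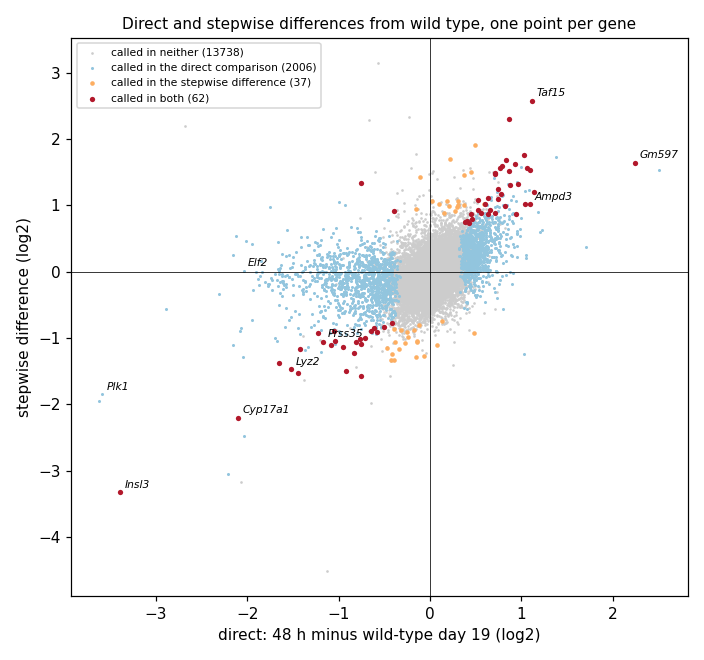
Direct difference between 48 h and wild-type day 19 (horizontal axis, log2) against the stepwise difference (vertical axis, log2), with 1 point for each of 15843 genes and colours for calls at adjusted p under 0.05. Insl3 and Cyp17a1 lie low on both axes, while many genes that are low on the direct axis, such as Elf2, lie near 0 on the stepwise axis.

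Several genes that Sertoli cells switch on with androgen lay near the wild-type level at 48 h, and Defb45 was called above it in the direct comparison. Rhox5, an X-linked homeobox gene and a classic androgen target of Sertoli cells, read 11.49 and 11.32 in wild type, 8.00 and 7.83 in untreated LuRKO, 8.17 in vehicle replicate B and 11.79 and 11.71 at 48 h. Both treated arrays lay above both wild-type arrays, by a mean difference of 0.35 (SE 0.45, adjusted p = 0.695). Without vehicle replicate A in the fit the 95% interval of that difference ran from -0.24 to 0.93. The stepwise difference of Rhox5 was 0.10 (adjusted p = 0.954), and -1.28 (adjusted p = 0.333) through both vehicle arrays, replicate A included. The rise from vehicle replicate B was 3.58 (SE 0.35, adjusted p = 4.22e-08).

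Drd4, a dopamine receptor, and Eppin, a protease inhibitor of the sperm surface, also lay near wild type in the direct comparison. Drd4 read 10.66 and 10.62 in wild type, 7.34 and 7.58 in untreated LuRKO, 7.97 in vehicle replicate B and 10.56 and 10.19 at 48 h. The treated arrays lay below the wild-type arrays on average (log2 difference -0.27, SE 0.38, adjusted p = 0.726), with a 95% interval from -0.62 to 0.09 without vehicle replicate A. The stepwise difference of Drd4 was -0.78 and not called (adjusted p = 0.19), while through both vehicle arrays, replicate A included, it was -2.11 and called (adjusted p = 0.034). Eppin differed from wild type by 0.13 (SE 0.18, adjusted p = 0.705). Its treated values, 11.48 and 11.57, overlapped the wild-type values of 11.51 and 11.28, its untreated LuRKO values were 10.31 and 9.98, and its stepwise difference was -0.56 (adjusted p = 0.387). Corin, a serine protease chosen after its values were seen, read 10.98 and 11.01 in wild type, 9.55 and 9.11 in untreated LuRKO and 10.57 and 10.78 at 48 h, with a stepwise difference of -0.40 (adjusted p = 0.739).

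Defb45, a beta-defensin, was called above the wild-type level in the direct comparison and by none of the stepwise routes. It read 10.75 and 10.44 in wild type, 8.82 and 8.62 in untreated LuRKO, 8.65 in vehicle replicate B and 11.48 and 11.45 at 48 h. The treated arrays lay above the wild-type, untreated and vehicle arrays, by 0.87 over wild type (SE 0.26, adjusted p = 0.0227, 1.83-fold). The stepwise difference was 0.94, with adjusted p = 0.0714. Through the 250 ng arrays it was 0.775 (adjusted p = 0.393), and through both vehicle arrays, replicate A included, 0.14 (adjusted p = 0.899). With normexp background correction at offset 16 the direct difference was 0.89 and not called (adjusted p = 0.0616). The direct call was lost without 48 h replicate A (0.85, adjusted p = 0.115), 48 h replicate B (0.89, adjusted p = 0.0994) or wild-type replicate B (0.71, adjusted p = 0.213), and held without vehicle replicate A (adjusted p = 0.000235). Wild-type testes at day 27 read 10.60 and 10.75, so the older wild-type testes lay below the treated ones as well.

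Other androgen-responsive genes did not follow this order. Tsx, an X-linked Sertoli cell gene, rose from 7.89 in vehicle replicate B to 8.73 and 8.63 at 48 h, and stayed below its wild-type values of 9.76 and 9.91. Its direct difference was -1.15 (SE 0.22, adjusted p = 0.000363), and its stepwise difference, -0.57, was not called (adjusted p = 0.329). Ocln, which encodes occludin of the tight junctions between Sertoli cells, read 7.73 and 7.78 in wild type, 8.69 and 8.69 in untreated LuRKO, 8.28 in vehicle replicate B and 8.34 and 8.22 at 48 h. It remained higher than wild type in both estimates, by 0.53 directly (adjusted p = 0.00329) and 0.94 stepwise (adjusted p = 0.0188), though the direct call was lost without 48 h replicate A (0.47, adjusted p = 0.0587). Through the 250 ng arrays Ocln differed by 0.65 and was not called (adjusted p = 0.0713). Serpina3n, a serine protease inhibitor, stood at 6.76 and 6.71 in wild type and at 9.52 and 8.97 at 48 h. It was higher in vehicle replicate B (8.62) than in untreated LuRKO (7.60 and 7.67), and the direct difference of 2.51 (adjusted p = 0.000117) fell to 1.53 stepwise, which was not called (adjusted p = 0.25).

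Over the 18 tested androgen-responsive Sertoli cell genes, untreated LuRKO testes had 2 higher and 9 lower than wild type, where 10.8% and 10.3% of all tested genes were called in these directions. At 48 h, 3 were higher (Serpina3n, Defb45 and Ocln) and 1 lower (Tsx) than wild type in the direct comparison, and 14 were not called. Of all tested genes, 6.05% were higher and 7.02% lower directly, and 0.347% and 0.278% stepwise. The median difference of the 18 genes from wild type went from -0.39 in untreated LuRKO to -0.01 directly and 0.05 stepwise. From vehicle replicate B to 48 h, 7 of the 18 rose and 0 fell, where 8.43% and 7.61% of all tested genes did. Their median change was 0.44 against -0.04 over all genes. The 14 targets shared by the glucocorticoid and androgen receptors had 0 called in either direction in both estimates, and Fkbp5, the best known of them, read 9.86 and 9.65 in wild type and 9.94 and 9.89 at 48 h.

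**Figure D3:**
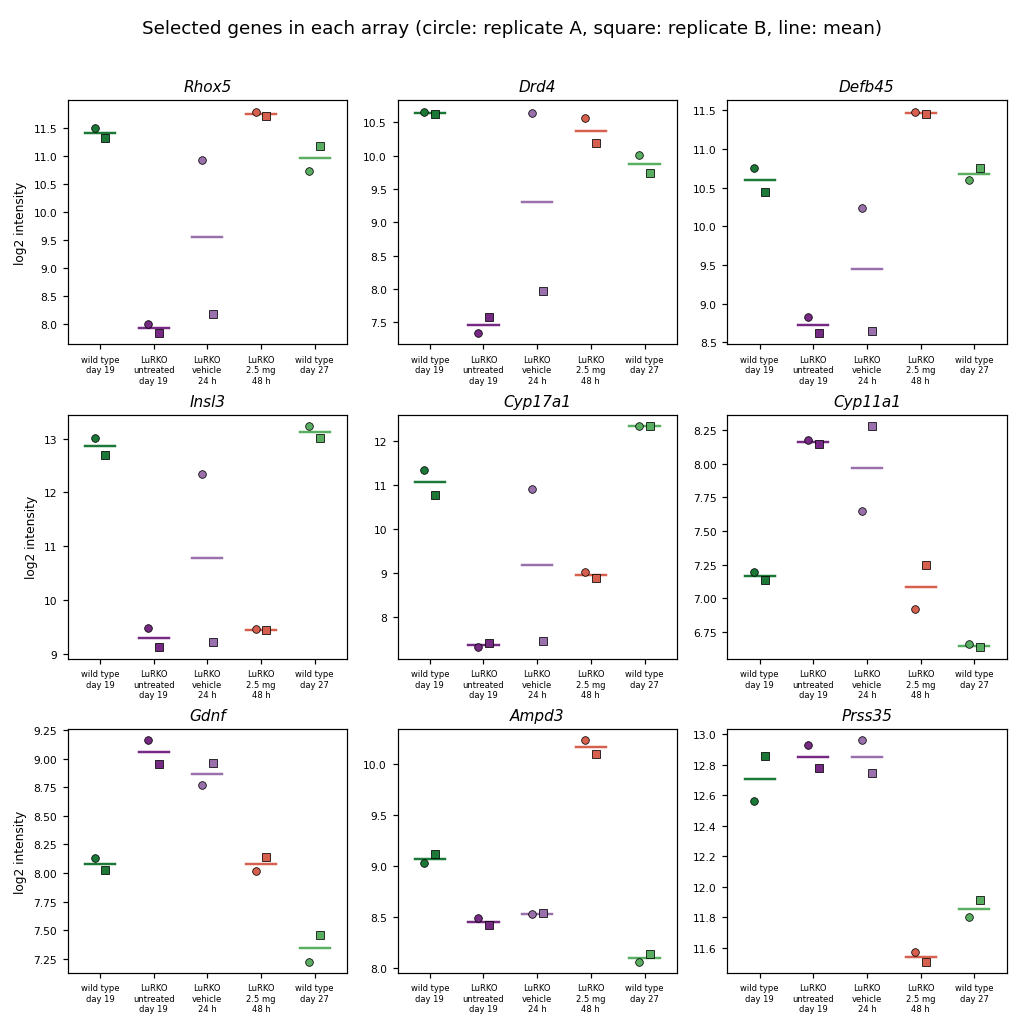
Log2 intensity (vertical axes) of 9 genes in wild type at day 19, untreated LuRKO, vehicle LuRKO, LuRKO 48 h after 2.5 mg testosterone propionate and wild type at day 27. Circles are replicate A, squares replicate B and lines group means. Rhox5 and Drd4 lie near wild type, Defb45 and Ampd3 lie above it, Prss35 lies below it, Insl3 stays at the LuRKO level, and the vehicle circle lies near wild type for Rhox5, Drd4, Defb45, Insl3 and Cyp17a1.

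The start regions of Rhox5 and Defb45 are shown because both genes read higher at 48 h than in vehicle replicate B. Only Defb45 was called above wild type in the direct comparison, and the difference between these genes was not tested. Each is RefSeq sequence of GRCm38.p6, 250 bases before to 50 after the annotated start, on the strand of the gene. Capitals mark the half-site of the androgen receptor's binding motif, AGAACA or its reverse complement TGTTCT. Rhox5 lies at chrX:37754358-37754657 on the plus strand and holds 1 copy. Defb45 lies at chr2:152596436-152596735 on the minus strand and holds 0 copies.
Rhox5: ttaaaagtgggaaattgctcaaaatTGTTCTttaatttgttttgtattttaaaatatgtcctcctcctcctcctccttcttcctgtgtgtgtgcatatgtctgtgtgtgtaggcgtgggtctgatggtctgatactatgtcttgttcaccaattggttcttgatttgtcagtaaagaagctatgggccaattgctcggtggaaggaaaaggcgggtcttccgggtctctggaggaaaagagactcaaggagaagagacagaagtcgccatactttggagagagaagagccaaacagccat
Defb45: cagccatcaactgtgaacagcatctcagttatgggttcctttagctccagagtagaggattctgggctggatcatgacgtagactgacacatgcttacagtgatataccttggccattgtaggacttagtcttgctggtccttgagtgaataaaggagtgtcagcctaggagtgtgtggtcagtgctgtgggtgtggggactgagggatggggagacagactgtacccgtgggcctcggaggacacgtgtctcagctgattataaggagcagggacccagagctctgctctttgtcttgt
At least 1 copy was present in 19% of the 32851 start regions in the same table, so its presence in Rhox5 is a description of these letters and no evidence of binding.

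Of the Leydig cell products measured above background, Insl3 and Cyp17a1 were below wild type at 48 h in both estimates. Insl3, a peptide hormone of Leydig cells that drives testis descent, read 13.01 and 12.70 in wild type and 9.47 and 9.44 at 48 h. These treated values did not differ from those of vehicle replicate B and untreated LuRKO by more than the replicates did, and the change from vehicle replicate B was 0.22 (SE 0.25, adjusted p = 0.639). The treated arrays lay below wild type (log2 difference -3.40, SE 0.45, adjusted p = 1.89e-06, 10.5-fold) and the stepwise difference was -3.32 (adjusted p = 4.95e-07). A second Insl3 probe gave -2.50 directly and -2.81 stepwise. The start region of Insl3 is shown beside those of Rhox5 and Defb45 because it had the largest decrease on the Leydig cell lists in both estimates. It lies at chr8:71689002-71689301 on the plus strand and holds 0 copies of the half-site.
Insl3: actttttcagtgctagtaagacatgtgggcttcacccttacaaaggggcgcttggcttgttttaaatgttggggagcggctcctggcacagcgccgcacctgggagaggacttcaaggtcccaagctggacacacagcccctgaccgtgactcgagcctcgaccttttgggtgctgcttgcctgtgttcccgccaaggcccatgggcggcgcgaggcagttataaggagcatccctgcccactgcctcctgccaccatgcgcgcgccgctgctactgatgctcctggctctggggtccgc

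Cyp17a1, the steroid 17-hydroxylase and lyase on the path to androgens, moved part of the way. It read 11.35 and 10.78 in wild type, 7.31 and 7.40 in untreated LuRKO, 7.46 in vehicle replicate B and 9.03 and 8.90 at 48 h. The treated arrays lay between the mutant and the wild-type arrays without overlap. They were 1.51 above vehicle replicate B (SE 0.28, adjusted p = 0.000487) and below wild type (log2 difference -2.10, SE 0.50, adjusted p = 0.0038), and the stepwise difference was -2.20 (adjusted p = 0.00245). Without wild-type replicate A the direct difference was -1.82 and not called (adjusted p = 0.0678). With the 250 ng arrays as the step the difference was -2.02 and not called (adjusted p = 0.206). Wild-type testes at day 27 read 12.35 in both arrays, so the gap was wider against older wild-type testes.

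Cyp11a1, which makes the first cut in the cholesterol side chain, gave different values with different probes. Its brightest probe was higher in untreated LuRKO (8.17 and 8.14) than in wild type (7.20 and 7.14) and fell to 6.92 and 7.25 at 48 h, from vehicle replicate B (log2 difference -1.20, SE 0.18, adjusted p = 4.16e-05). At 48 h the values of this probe overlapped wild type, with a difference of -0.08 (SE 0.17, adjusted p = 0.82) and of -0.21 stepwise (adjusted p = 0.783). The other 2 probes were lower than wild type directly, by -1.06 (adjusted p = 0.00019; stepwise -1.29, adjusted p = 0.0144) and -0.65 (adjusted p = 0.0104; stepwise -0.66, adjusted p = 0.284), and the mean of the 3 probes was called lower (-0.60, adjusted p = 0.00169). Hsd17b7, an enzyme of cholesterol synthesis with steroid-reducing activity, chosen after its values were seen, read 9.83 and 9.96 in wild type, 10.56 and 10.62 in untreated LuRKO and 9.92 and 10.09 at 48 h, with a stepwise difference of 0.02 (adjusted p = 0.982). Hsd3b1, which converts pregnenolone to progesterone, was lower than wild type only in the direct comparison (-1.44, adjusted p = 6.12e-07), since vehicle replicate B already read 6.19 against 7.25 and 6.73 in untreated LuRKO. It was not above background in either treated array and was at least 2.06-fold lower than wild type.

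Dim probes limit what can be said of other steroid genes. Star, which carries cholesterol into mitochondria, read between 6.71 and 6.87 in all 6 arrays of wild type, untreated LuRKO and 48 h, close to the background threshold of 6.60. Hsd17b3, which makes testosterone from androstenedione, and Hsd3b6 differed by -0.18 (adjusted p = 0.506) and -0.03 (adjusted p = 0.952). Kcnk3, a potassium channel, read 7.70 and 7.63 in wild type, 6.62 and 6.98 in untreated LuRKO and 6.31 and 6.29 at 48 h, at least 2.10-fold lower than wild type directly (adjusted p = 4.8e-06). Its stepwise difference was -1.18 (adjusted p = 0.0517). Of 11 steroidogenesis genes tested, 0 were higher and 2 lower directly and 1 was lower stepwise. Of 10 adult Leydig cell markers, 0 were higher and 1 lower in both estimates. Over all tested genes, 6.05% were higher and 7.02% lower directly, and 0.347% and 0.278% stepwise.

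Of the markers of immature Leydig and interstitial progenitor cells, most were not called at 48 h. Dlk1, a membrane protein of fetal Leydig and progenitor cells chosen after its values were seen, read 10.36 and 10.64 in wild type, 12.02 and 12.48 in untreated LuRKO, 12.02 in vehicle replicate B and 10.90 and 10.93 at 48 h. It fell from vehicle replicate B (adjusted p = 0.000368), and both treated values lay just above both wild-type values, by 0.41 (adjusted p = 0.135) and by 0.64 stepwise (adjusted p = 0.259). Of the 12 markers tested, 2 were higher and 0 lower directly, where 6.05% and 7.02% of all tested genes were. Stepwise 0 of the 12 were called, where 0.347% of all tested genes were higher and 0.278% lower. Igf1, the growth factor among the 12, read 8.28 and 8.37 in wild type, 7.67 and 7.34 in untreated LuRKO and 9.33 and 9.30 at 48 h. Its 48 h values lay above both of these groups, with 0.99 directly (adjusted p = 0.000805) and 0.81 stepwise (adjusted p = 0.147). Tcf21, a transcription factor of interstitial cells and the other gene called higher, had 0.51 directly and -0.38 stepwise, and so no settled direction. Its direct call was lost without 48 h replicate A (0.49), 48 h replicate B (0.52) or wild-type replicate A (0.33).

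Some macrophage markers were below wild type at 48 h. Testicular macrophages lie beside Leydig cells, and 10 of 14 tested markers were lower and 0 higher in untreated LuRKO than in wild type, where 10.3% of all tested genes were lower. At 48 h 6 were lower and 0 higher directly (7.02% of all tested genes were lower), and 3 were lower and 0 higher stepwise (0.278%), with medians of -0.29 and -0.56. From vehicle replicate B to 48 h 3 rose and 0 fell, where 8.43% and 7.61% of all tested genes did.

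Lyz2, lysozyme of macrophages, read 9.74 and 10.10 in wild type, 9.39 and 8.60 in untreated LuRKO, 8.95 in vehicle replicate B and 8.58 and 8.22 at 48 h. Both treated values lay below every wild-type value, with a mean log2 difference of -1.52 (SE 0.23, adjusted p = 1.75e-05), and the stepwise difference was -1.47 (adjusted p = 0.0369). A second Lyz2 probe gave -0.64 and -2.05. Csf1r, the receptor for the macrophage growth factor, read 8.54 and 8.52 in wild type, 7.94 and 7.57 in untreated LuRKO, 7.64 in vehicle replicate B and 7.61 and 7.62 at 48 h. Its log2 difference was -0.91 directly (adjusted p = 0.000152) and its stepwise difference -0.80 (adjusted p = 0.0631). Adgre1, which encodes a surface receptor of mature macrophages, behaved alike, at 9.01 and 8.98 in wild type and 8.12 and 8.03 at 48 h (-0.92, adjusted p = 0.000307), with a stepwise value of -0.94 (adjusted p = 0.0919). The next brightest Adgre1 probe gave -0.90 directly (adjusted p = 0.000164) and -0.91 stepwise (adjusted p = 0.0726). The dimmest Adgre1 probe, near background, differed by -0.06 directly (adjusted p = 0.83).

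Complement C1q genes depended on the route. C1qb read 8.71 and 8.87 in wild type, 7.75 and 7.85 in untreated LuRKO, 8.54 in vehicle replicate B and 8.70 and 8.40 at 48 h, so the treated arrays overlapped wild type directly (-0.24, adjusted p = 0.29) while the stepwise difference was -0.98 (adjusted p = 0.0144). C1qc, chosen after its values were seen, was lower in both, by -0.75 (adjusted p = 0.000865) and -1.58 (adjusted p = 0.000748), the first not called without wild-type replicate B (-0.58, adjusted p = 0.0555). Fcer1g, a signalling chain of Fc receptors also chosen after its values were seen, returned: it read 8.55 and 8.75 in wild type, 7.24 and 6.81 in untreated LuRKO, 7.13 in vehicle replicate B and 8.76 and 8.54 at 48 h, with a stepwise difference of -0.10 (adjusted p = 0.947). Among the 14 markers, values at 48 h thus differed from wild type by -1.52 (Lyz2) to 0.28 (Aif1).

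Some spermatid genes were called above wild type of day 19. Round spermatid and acrosome genes were low in untreated LuRKO testes, with 0 higher and 17 lower of 23, where 10.8% and 10.3% of all tested genes were. At 48 h 7 of the 23 were higher than wild type at day 19 and 0 lower directly, beside 6.05% and 7.02% of all tested genes. Stepwise 4 were higher and 0 lower, beside 0.347% and 0.278% of all tested genes. The median difference of the 23 genes was 0.28 directly and 0.62 stepwise. With the 250 ng arrays as the step, 0 of the 23 were called in either direction, with a median of 0.34, where 0.36% of all tested genes were higher and 0.246% lower. From vehicle replicate B to 48 h 21 rose and 0 fell, with a median of 1.20, where 8.43% of all tested genes rose and 7.61% fell. The vehicle testes were taken at 24 h and so were younger. In wild type the median of the list rose by 3.95 from day 19 to day 27.

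Acrv1, an acrosomal vesicle protein, read 8.52 and 8.84 in wild type, 7.15 and 6.71 in untreated LuRKO, 6.16 in vehicle replicate B and 8.97 and 9.82 at 48 h. Both treated arrays lay above both wild-type arrays, by 0.71 on average (SE 0.22, adjusted p = 0.0334), and by 1.48 stepwise (adjusted p = 0.0468). Actl7a, an actin-like protein of the acrosome, read 8.71 and 9.16 in wild type, 7.95 and 7.29 in untreated LuRKO, 6.77 in vehicle replicate B and 9.44 and 10.09 at 48 h. It was higher by 0.83 directly (adjusted p = 0.0168) and 1.68 stepwise (adjusted p = 0.0315). The same held for Lyzl4, a lysozyme-like sperm protein (1.10 and 1.53), for Dnajc5b, a testis chaperone of the cysteine string family (1.06 and 1.57), and for Acsbg2, an acyl-CoA synthetase of testis (0.97 and 1.32), each called in both estimates. In each of these genes replicate B at 48 h read higher than replicate A, for instance 8.94 against 8.08 for Lyzl4. Without 48 h replicate B none of the 5 was called directly: the differences were 0.29 for Acrv1, 0.51 for Actl7a, 0.67 for Lyzl4, 0.67 for Dnajc5b and 0.54 for Acsbg2, with adjusted p between 0.083 and 0.585. Without wild-type replicate A the calls of Acrv1 (0.55), Actl7a (0.60) and Dnajc5b (0.82) were lost, and without wild-type replicate B that of Acrv1 (0.87, adjusted p = 0.0536). Through the 250 ng arrays Lyzl4 was called (1.32, adjusted p = 0.0406), while Acrv1 (0.96, adjusted p = 0.176), Actl7a (1.08, adjusted p = 0.136), Acsbg2 (0.98, adjusted p = 0.0779) and Dnajc5b (0.99, adjusted p = 0.187) were not.

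Age moves with these values. In wild type at day 27 Acrv1 read 13.38 and 13.43, Actl7a 13.85 and 13.97 and Lyzl4 12.01 and 12.10, far above every day 19 and 48 h array. Against a wild type set on the straight line between day 19 and day 27 at the age of the treated mice, Acrv1 lay at -0.47 (adjusted p = 0.0923), Actl7a at -0.41 (adjusted p = 0.164) and Lyzl4 at -0.06 (adjusted p = 0.868). On that scale 1 of the 23 round spermatid genes was higher and 11 were lower, where 15.2% and 11.9% of all tested genes were called in these directions. At 48 h Acrv1, Actl7a and Lyzl4 thus lay above wild type of day 19 and not above the interpolated level. How the true course between these days runs was not tested.

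**Figure D4:**
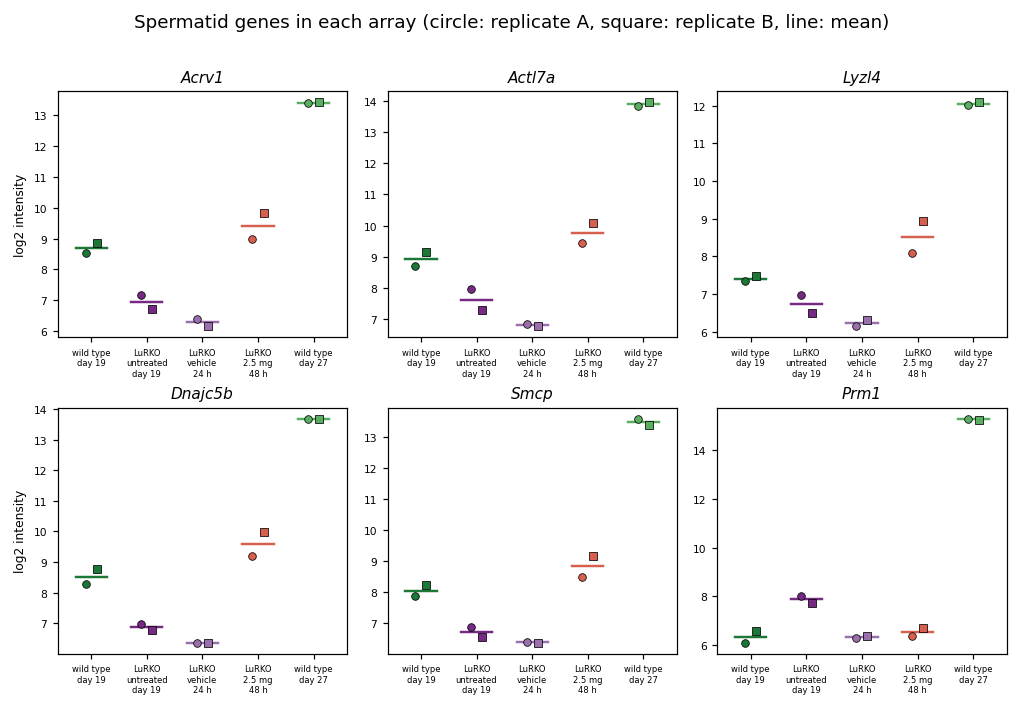
Log2 intensity (vertical axes) of 6 spermatid genes in the same groups; circles are replicate A, squares replicate B and lines group means. For the first 5 genes the 48 h arrays lie above wild type at day 19 and far below wild type at day 27, and replicate B lies above replicate A; Prm1 is near background in all groups but untreated LuRKO and wild type at day 27.

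Of 20 late spermatid genes tested, 4 were higher and 0 lower directly, and 1 was higher and 0 lower stepwise. Of all tested genes, 6.05% were higher and 7.02% lower directly, and 0.347% and 0.278% stepwise. Smcp, a capsule protein of sperm mitochondria, read 7.88 and 8.22 in wild type, 6.89 and 6.56 in untreated LuRKO, 6.37 in vehicle replicate B and 8.50 and 9.16 at 48 h, with 0.78 directly (adjusted p = 0.0061) and 1.14 stepwise (adjusted p = 0.0832). Odf1, of the outer dense fibres of the tail, had 0.67 (adjusted p = 0.0339) and 1.07 (adjusted p = 0.133). Both direct calls were lost without 48 h replicate B (0.45 for Smcp and 0.32 for Odf1) and without wild-type replicate A (0.61 and 0.43). Tnp1, a transition protein that replaces histones, read 7.16 and 7.28 in wild type and 7.07 and 8.12 at 48 h, against 14.66 and 14.60 in wild type at day 27, and was called higher only without 48 h replicate A (0.91, adjusted p = 0.000847). Prm1, a protamine of sperm chromatin, read 6.11 and 6.57 in wild type and 6.39 and 6.72 at 48 h, with 15.27 and 15.22 at day 27. Its untreated LuRKO values were 8.03 and 7.75, both above background, where neither wild-type array was, and the stepwise call of 1.70 (adjusted p = 0.00119) includes that gap.

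The start region of Acrv1 is shown as that of a spermatid gene called above wild type of day 19 in both estimates. It lies at chr9:36692970-36693269 on the plus strand and holds 2 copies of the half-site, facing each other across 4 bases. At least 1 copy was present in 19% of all start regions and in 16.5% of the 97 named genes found there. The copies in Acrv1 are a description of these letters and no evidence of binding.
Acrv1: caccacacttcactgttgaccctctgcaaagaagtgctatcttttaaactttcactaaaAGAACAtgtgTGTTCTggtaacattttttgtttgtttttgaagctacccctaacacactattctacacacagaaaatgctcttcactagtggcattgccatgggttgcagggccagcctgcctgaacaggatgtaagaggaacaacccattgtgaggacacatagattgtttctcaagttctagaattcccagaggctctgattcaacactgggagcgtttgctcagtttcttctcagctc

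Genes beyond the fixed lists lay above or below wild type at 48 h. Ampd3, an AMP deaminase, was above it. This gene read 9.03 and 9.12 in wild type, 8.49 and 8.42 in untreated LuRKO, 8.54 in vehicle replicate B and 10.23 and 10.10 at 48 h. The treated arrays were above all of these, by 1.09 over wild type (SE 0.13, adjusted p = 3.66e-07, 2.14-fold) and by 1.01 stepwise (adjusted p = 0.0157). Wild type at day 27 read 8.06 and 8.14, below day 19. Stc2, the secreted stanniocalcin 2 chosen after its values were seen, was at 7.11 and 7.33 in wild type, 7.41 and 7.19 in untreated LuRKO, 7.38 in vehicle replicate B and 8.22 and 8.09 at 48 h. It was higher by 0.94 directly (adjusted p = 1.53e-06) and 0.86 stepwise (adjusted p = 0.0328).

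Other genes were higher directly and not stepwise. Ccn5, a matricellular protein, read 8.48 and 8.61 in wild type, 7.88 and 7.59 in untreated LuRKO, 8.53 in vehicle replicate B and 9.76 and 9.42 at 48 h, with 1.05 directly (adjusted p = 1.23e-05) and 0.25 stepwise (adjusted p = 0.739). Gpx3, a secreted glutathione peroxidase, had 1.23 (adjusted p = 3.52e-06) and 0.63 (adjusted p = 0.294). Ifit3, an interferon-induced gene, read 10.49 and 8.35 in the 2 treated arrays, 7.46 and 7.95 in wild type and 8.96 in vehicle replicate B. Its direct call (1.71, adjusted p = 0.00275) was lost without 48 h replicate A (0.64, adjusted p = 0.32) and without wild-type replicate A (1.46, adjusted p = 0.0586). Gm597, a predicted gene, was higher in both (2.25 directly, adjusted p = 3.57e-07, and 1.64 stepwise). It was not called through the 250 ng arrays (1.33, adjusted p = 0.0958) or through both vehicle arrays, replicate A included (1.17, adjusted p = 0.1). Gm597 was not above background in wild type, which makes it at least 4.25-fold higher directly.

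Below wild type, Prss35 and Tgfbi were called in both estimates. Prss35, a serine protease, read 12.56 and 12.86 in wild type, 12.93 and 12.78 in untreated LuRKO, 12.75 in vehicle replicate B and 11.57 and 11.51 at 48 h. The LuRKO arrays without testosterone overlapped wild type, and the treated ones lay below all of them, directly (log2 difference -1.17, SE 0.13, adjusted p = 7.01e-08) and with a stepwise difference of -1.06 (adjusted p = 0.00807). Wild type at day 27 was lower too, at 11.80 and 11.91. Tgfbi, an adhesion protein of the matrix induced by TGF-beta, read 10.56 and 10.47 in wild type, 10.74 and 10.77 in untreated LuRKO and 9.81 and 9.69 at 48 h, with vehicle replicate B above all of these. Its differences were -0.77 (adjusted p = 3.7e-05) and -1.02 (adjusted p = 0.00843). Pcsk6, a proprotein convertase, and Pappa, a protease that cleaves IGF-binding proteins, were above wild type in untreated LuRKO and below it at 48 h. Pappa read 8.71 and 8.67 in wild type, 9.55 and 9.54 in untreated LuRKO, 9.44 in vehicle replicate B and 8.01 and 7.93 at 48 h. The direct differences were -0.99 for Pcsk6 (adjusted p = 0.000916) and -0.72 for Pappa (adjusted p = 0.000913); stepwise they were -0.90 (adjusted p = 0.161) and -0.62 (adjusted p = 0.235). The 2 dimmer probes of Pcsk6 gave -0.23 (adjusted p = 0.229) and -0.19 (adjusted p = 0.471) directly.

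Genes that were high in LuRKO testes and stayed above wild type included Pdlim4 and Ttf1. Pdlim4, an actin-associated PDZ and LIM domain protein, read 9.48 and 9.59 in wild type, 11.18 and 11.22 in untreated LuRKO, 11.22 in vehicle replicate B and 10.52 and 10.63 at 48 h. It fell from vehicle replicate B (log2 difference -0.65, adjusted p = 0.00673) and was still higher than wild type by 1.04 directly (adjusted p = 5.96e-06) and 1.02 stepwise (adjusted p = 0.0155). Its second, dimmer probe differed by 0.12 (adjusted p = 0.711). Ttf1, the termination factor of RNA polymerase I, read 7.71 and 7.68 in wild type, 9.06 and 8.95 in untreated LuRKO, 8.32 in vehicle replicate B and 8.70 and 8.56 at 48 h, with 0.93 (adjusted p = 0.00129) and 1.62 (adjusted p = 0.0101). A second Ttf1 probe, near background, differed by -0.30 (adjusted p = 0.239), and the mean of both was 0.32 and not called (adjusted p = 0.0849). Myh8, a perinatal myosin heavy chain, read 6.98 and 6.78 in wild type, 9.61 and 9.42 in untreated LuRKO, 9.17 in vehicle replicate B and 8.03 and 8.49 at 48 h, with 1.38 (adjusted p = 0.00832) and 1.72 (adjusted p = 0.0743). The direct call of Myh8 was lost without 48 h replicate B (1.15, adjusted p = 0.123) and without wild-type replicate B (1.28, adjusted p = 0.0855), and its 2 dimmer probes gave 0.40 (adjusted p = 0.143) and 0.44 (adjusted p = 0.13). On the brightest probes the treated values of all 3 genes lay above both wild-type values.

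Beside Insl3, another 3 genes, chosen after their values were seen, lay below wild type at 48 h with no called change from vehicle replicate B. Hao2, a peroxisomal hydroxyacid oxidase, read 7.91 and 8.29 in wild type, 6.74 and 6.49 in untreated LuRKO, 6.71 in vehicle replicate B and 6.75 and 6.57 at 48 h, with -1.44 directly (adjusted p = 2.81e-06) and -1.53 stepwise (adjusted p = 0.0125). Bhmt, which methylates homocysteine from betaine, was not above background in either treated array. It was at least 1.50-fold lower than wild type (7.05 and 7.31), with a stepwise difference of -1.04 (adjusted p = 0.00462). Cstdc2, a cystatin domain gene, read 7.59 and 7.54 in wild type, 6.33 and 6.53 in untreated LuRKO and 6.46 and 6.51 at 48 h, below background and at least 1.96-fold lower, with a stepwise difference of -1.10 (adjusted p = 0.00335). The treated values of these 3 genes lay below both wild-type values, and from vehicle replicate B to 48 h the test called none of them (adjusted p between 0.0912 and 0.927).

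Secreted factors of Sertoli cells that were high in untreated LuRKO testes included Gdnf and Wnt5a, which fell from vehicle. Gdnf, the growth factor that maintains spermatogonial stem cells, read 8.13 and 8.02 in wild type, 9.16 and 8.96 in untreated LuRKO, 8.97 in vehicle replicate B and 8.01 and 8.14 at 48 h. The treated and wild-type values overlapped, with a 95% interval of the difference from -0.23 to 0.23 and a stepwise difference of 0.10, and the fall from vehicle replicate B was called (log2 difference -0.89, adjusted p = 4.71e-05). Wnt5a, a secreted Wnt ligand, fell likewise, from 9.93 in vehicle replicate B to 8.29 and 8.44, beside 7.97 and 8.25 in wild type, with a stepwise difference of -0.07 (adjusted p = 0.95). Sox9, the Sertoli cell transcription factor, remained at 13.06 and 12.93 against 12.39 and 12.28 in wild type (0.66, adjusted p = 0.000144), with 0.33 stepwise (adjusted p = 0.466), and its second probe gave 0.25 directly (adjusted p = 0.41). The list of 18 Sertoli cell markers had 6 members above and 1 below wild type in untreated LuRKO testes. At 48 h 2 were higher and 0 lower directly, and 0 were called stepwise. Among all tested genes, 10.8% were higher and 10.3% lower in untreated LuRKO. At 48 h 6.05% and 7.02% were so directly, and 0.347% and 0.278% stepwise.

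Some genes of earlier germ cells were called in the direct comparison, and none of those listed in the less precise stepwise one, though the difference between the estimates was not tested. Stra8, which retinoic acid induces at the entry into meiosis, read 10.12 and 9.92 in wild type, 10.96 and 10.54 in untreated LuRKO, 9.94 in vehicle replicate B and 8.33 and 8.62 at 48 h. It fell from vehicle replicate B (log2 difference -1.46, adjusted p = 0.00172) and lay below wild type (log2 difference -1.54, adjusted p = 7.82e-05), while the stepwise difference was -0.74 (adjusted p = 0.44). Ddx4, a germ cell RNA helicase, differed by -1.23 (adjusted p = 3.34e-06) with its brightest probe and 0.07 (adjusted p = 0.855) with the next. Of 20 spermatogonial markers, 1 was higher and 4 lower directly, and of 21 meiotic prophase genes 4 were higher and 3 lower. Stepwise, 0 of either list were called. The shares of all tested genes were 6.05% higher and 7.02% lower directly, and 0.347% and 0.278% stepwise. Ldhc, the lactate dehydrogenase of spermatocytes, stood between 15.32 and 15.39 in the treated and wild-type arrays.

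Among structural and metabolic lists most direct calls were decreases that were not called stepwise. Of 16 matrix genes 4 were lower and 0 higher directly, led by Col3a1 (12.07 and 12.31 in wild type, 10.67 and 10.71 at 48 h). Vehicle replicate B already read 10.59, the stepwise difference of Col3a1 was 0.22 (adjusted p = 0.814), and a second probe gave 0.33 directly (adjusted p = 0.194). The tight junction list had 1 of 12 higher and 3 lower directly, and 1 higher (Ocln) and 0 lower stepwise; Tjp1 went from -1.02 directly to 0.04 stepwise. Vitamin A genes had 2 of 18 higher and 4 lower directly, and cholesterol genes 0 of 13 higher and 2 lower. Cell cycle genes had 1 of 16 higher and 2 lower, and adhesion partners of germ and Sertoli cells 0 of 11 higher and 4 lower. Protease inhibitors and beta-defensins had 4 of 12 higher and 0 lower. In all 5 of these lists 0 were called stepwise. Over all tested genes, 6.05% were higher and 7.02% lower directly, and 0.347% and 0.278% stepwise. At these stepwise shares, 0 calls in lists this short say little about the lists. Among markers of other cell types, 0 of 9 peritubular myoid markers and 0 of 3 erythroid genes were called directly, and 1 of 12 endothelial markers was higher (Vwf, 0.59), with 0 called stepwise in each. Vwf, of blood vessel walls and platelets, was not called without 48 h replicate B (0.56) or wild-type replicate B (0.50). Hba-a1, of haemoglobin, read 12.58 and 12.14 in wild type and 13.00 and 13.26 at 48 h (adjusted p = 0.0904).

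**Figure D5:**
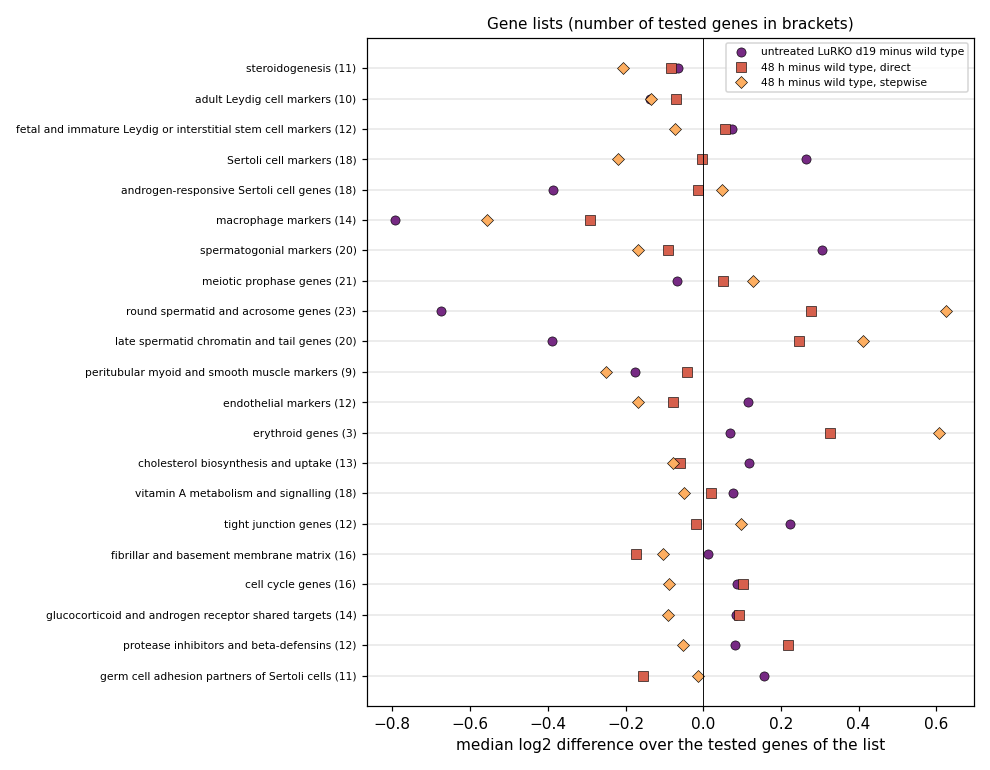
Median log2 difference (horizontal axis) over the tested genes of each of 21 lists (vertical axis), for untreated LuRKO minus wild type and for 48 h minus wild type directly and stepwise. Macrophage markers stay below 0 in all 3, androgen-responsive genes move from -0.39 to near 0, and spermatid lists move from below to above 0.

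Genes that differ between the genotypes at other ages, on arrays outside the direct comparison, were followed in it. Of 165 genes lower in LuRKO than in wild type at day 13 (1.04% of those tested), 16 were higher and 22 lower at 48 h directly, and 0 were higher and 9 lower stepwise. These are 9.70% and 13.3% of the set, where 6.05% and 7.02% of all tested genes were called directly, and 0% and 5.45%, where 0.347% and 0.278% were called stepwise. Their median was -0.03 directly and -0.21 stepwise, against 0.04 and 0.00 over all genes. Of 91 genes higher in LuRKO at day 13 (0.574%), 18 were higher and 3 lower directly (19.8% and 3.30%), and 1 was higher and 0 lower stepwise (1.10% and 0%). At day 27, where LuRKO had 1 array, 3132 genes were lower (19.8%). Of these, 275 were higher and 129 lower at 48 h directly (8.78% and 4.12%), and 25 higher and 11 lower stepwise (0.798% and 0.351%).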

How the data were processed

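Testis RNA was measured on 38 Illumina bead arrays. BeadStudio is named per the submitters' processing notes, with no version. The deposited values are linear intensity, already normalised between arrays by the authors (array medians of 108.1 to 108.3). Their log2 was taken here, with no further background correction. Another 76 columns of per-array values were not used, since their names match no sample. Probes with 1 gene symbol above 96.8 (one-sided 0.01 against the background mode of 76.2) on at least 2 arrays were tested (27285 probes, 15843 genes). limma 3.58.1 (R 4.3.3) fitted 1 mean per group over all arrays (18 residual and 12.4 prior degrees of freedom), with Benjamini-Hochberg adjustment over all tested probes and a threshold of 0.05, and every adjusted p is from it unless another is named. A gene was counted by its brightest probe; 7070 genes had several. With 2 arrays a group, the number of arrays limits the precision, and p-values measure the spread between pools of 2 animals.

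Members and gene lists were chosen with earlier results of these data known. Named genes were drawn from the largest called differences each way among genes left on the mutant side, passing wild type or neither. Up to 4 called genes a list and a fixed panel were added, and others are marked as chosen after their values were seen. Not every gene so drawn is printed above, so the printed genes are not the extremes. Examples left out are Cfap69 (-3.62 directly, not called stepwise) and Taf15 (brightest probe 1.12 directly and 2.57 stepwise). The fits were tested on simulated data, where, of 67 probes changed by 1 (log2) among 27285, the direct comparison recovered 66 and the stepwise difference 40, with 10 and 4 false calls in all. Of 67 probes changed by 0.5, they recovered 23 and 1, so a stepwise difference of that size without a call is no sign of equality. The changed probes had a mean over 8, and the simulated arrays had no shift between series. Dim probes and such a shift were therefore not covered. Where a group was not above background, "at least" sets the bright mean against the higher of the lowest above-background signal and the dim probe's own. Alternatives covered background correction, scaling, filters, probe choice, arrays in the fit, the replicate block, each array left out, age, time and, added later, the stepwise routes.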

Additional observations from a re-analysis of the deposited data

How the results depend on the processing

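With 2 arrays a group, single arrays moved many counts. The direct count of higher genes, 959, went to between 370 and 458 with 1 of the 4 arrays left out, to 2408 against wild type interpolated to the age of the treated mice, to 1749 with the single 24 h array in place of 48 h, and to 55, 164 and 57 by the stepwise routes through vehicle replicate B, both vehicle arrays and the 250 ng arrays. The count of lower genes, 1112, went to 1882 with the interpolated wild type, to 44, 162 and 39 by the same 3 routes, and stayed between 751 and 836 with an array left out. The stepwise counts, 55 higher and 44 lower, were 26 and 20 with normexp offset 16, 6 and 2 with only the arrays compared, which leaves fewer samples, and 164 and 162 through both vehicle arrays; they ran from 15 to 157 and from 16 to 182 with 1 array left out, and the mean of a gene's probes gave 29 higher. The genotype count at day 19, 3340, was 1881 with only the arrays compared. Vehicle against untreated LuRKO gave 2158, and 658 with only the arrays compared or 1427 without vehicle replicate A.

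Of the genes called directly or under the setting named, the sign turned against the interpolated wild type for Acrv1 (-0.47), Actl7a (-0.41), Lyzl4 (-0.061), Dnajc5b (-0.22), Acsbg2 (-0.24), Smcp (-0.58), Odf1 (-0.66), Tnp1 (-1.47), Prm1 (-2.01) and Aif1 (-0.80). With the 24 h array it turned for C1qb (0.65), Acrv1 (-1.42), Actl7a (-1.34), Lyzl4 (-0.61), Dnajc5b (-1.68), Acsbg2 (-0.32), Smcp (-1.23) and Odf1 (-1.47). Through vehicle replicate B it turned for Elf2 (0.016), Tcf21 (-0.38), Col3a1 (0.22) and Tjp1 (0.044), through both vehicle arrays for Tcf21 (-0.42) and Col3a1 (0.17), and through the 250 ng arrays for Tcf21 (-0.043) and Vwf (-0.019). Of genes called neither way, Eppin (-0.56), Hsd17b3 (0.28), Wnt5a (-0.07) and Fcer1g (-0.10) also turned through vehicle replicate B. The cause was not tested. The other settings turned the sign of no named gene called directly or under them. The mean of a gene's probes called Cyp11a1 (-0.60) and lost Ttf1 (0.32). The replicate letters did not pair the samples (correlations of deviations 0.05, -0.01 and -0.02), and with the letter as a replicate block 956 genes were higher and 1119 lower, with no call of a named gene changed.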
